A study of Mus musculus with 4 samples.

Results

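The genes described here are the NRF2 regulators, the glutathione enzymes and the other antioxidant enzymes of a mouse hepatic stellate cell line, 35 genes of the 26704 gene names on the array. They were taken by name, as every non-control probe whose gene name was on the list, and the rule uses no measured value, although the list was drawn up with earlier results of these data known. The cells were IMS/N, a line of stellate cells from normal 129/Sv mouse livers immortalized with SV40, so a single line stands for the cell type. The 4 groups were cells left untreated, cells given recombinant murine IL17A, cells given medium conditioned by adipose-derived stem cells (ADSCs), and cells given both, with 1 array each. The ADSCs came from inguinal subcutaneous fat of male C57BL/6J mice aged 8 to 10 weeks, and the doses and times of the treatments are not given in the sources used here.

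NRF2, the product of Nfe2l2, is a transcription factor that KEAP1 holds in the cytoplasm and passes on for degradation. Oxidants and electrophiles modify KEAP1, and NRF2 then enters the nucleus, pairs with small MAF proteins and binds antioxidant response elements in front of genes for glutathione synthesis, thioredoxin recycling and detoxification. Stellate cells make the collagen of the scarring liver, and oxidants are known to promote their activation. IL17A is an inflammatory cytokine that acts largely through NF-κB and C/EBP factors.

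With 1 array a group no difference could be tested, and each value below compares single arrays. Levels are log2 signals after quantile normalization, and each gene is read from its brightest probe. A gene was counted as higher or lower when its log2 difference was 1 or more in size, a 2-fold change. Where a probe had several spots on an array, the SD of the difference of 2 spots was 0.0853 above a log2 level of 7, 0.138 from 5 to 7 and 0.253 below 5. This technical SD comes from spots of the same array, so it leaves out how cultures, RNA preparations, labelling, arrays and slides vary. A difference larger than it is therefore not shown to exceed the variation between arrays. The untreated and IL17A arrays shared slide 1, and the arrays of medium with and without IL17A shared slide 2. IL17A was therefore compared within a slide, while medium and slide cannot be told apart.

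All 4 IL-17 response genes used as a check were higher on the arrays with IL17A, among them Il6, an inflammatory cytokine, by 6.76 on the log2 scale without medium and 5.48 with it. The 7 housekeeping genes had median log2 differences of 0.09, -0.01, 0.07 and -0.07 in the 4 single-step comparisons. Spots well above background made up between 58.1% and 60.5% of each array, and no spot was saturated. The stellate and myofibroblast genes Vim, Acta2, Col1a1, Col1a2, Col3a1, Pdgfrb and Lhx2 were well above background on all arrays. Reln, Hand2 and Gfap were so on none and Lrat only on the array with both treatments. Des was so on every array but that of IL17A alone, at a low log2 level of 2.95 untreated. Ngfr was so only on the 2 arrays with medium. None of 5 hepatocyte markers was well above background on any array. Of 6 macrophage markers, Cd68, Lyz2 and Csf1r were so on all arrays, Ptprc on the array with both treatments, and Adgre1 and Clec4f on none. Kdr and Stab2 of 5 endothelial markers, Fabp4 of 4 adipocyte markers, and Pdgfra, Cd34, Ly6a and Pi16 of 5 adipose stem cell markers were well above background on all arrays. Pecam1, Cdh5, Lyve1, Adipoq, Plin1, Lep and Dpp4 were so on none. Summed linear signals on the 4 arrays ran from 81.7 to 136.3 for the macrophage list, 26.2 to 33.9 for the endothelial, 123.8 to 337.8 for the adipocyte and 14723 to 23981 for the adipose stem cell list. Of 6 cholangiocyte and mesothelial markers 4 were well above background, led by Msln, and their summed linear signal was 17809 untreated, 10750 with IL17A, 11942 with medium and 7965 with both. The 13 stellate and myofibroblast markers summed to 131785, 86318, 101947 and 74677 in the same order. The part of these shifts in the differences below was not tested.

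Genes past the 2-fold rule were counted in each comparison, beside the same share of all genes. Of 35 genes, 34 were well above background on all 4 arrays, and Gpx3, the secreted plasma glutathione peroxidase, was well above background on none. Between IL17A and untreated cells, 2 of the 34 measured genes were at least 2-fold higher (Gstt4 and Sod3) and 0 were lower, against 2.17% higher and 2.29% lower among all measured genes. With medium present, IL17A gave 2 higher genes, again Gstt4 and Sod3, and 1 lower gene, Mgst3, against 2.86% and 1.82% of all measured genes. Scaling to the 75th percentile instead of quantile normalization moved the higher share of all genes called from 48.7% to 33.0% without medium and from 61.1% to 80.8% with it.

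Medium alone against untreated cells gave 1 higher gene, Gstt4, and 1 lower gene, Sod3, where 2.45% of all measured genes were higher and 2.97% lower. Medium added to IL17A gave 0 higher genes and 1 lower gene, Sod3, where 3.22% were higher and 3.11% lower. Under 75th percentile scaling the higher share of all genes called moved from 45.2% to 29.1% and from 50.9% to 67.6% in these comparisons. Cells with both treatments against untreated cells gave 2 higher genes, Gstt4 and Slc7a11, and 1 lower gene, Mgst3, beside 3.38% and 4.28% of all measured genes. No more than 3 genes of the list were called in any of the 5 comparisons, and their shares are not read as a result about the list.

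The median log2 difference of the 34 genes was -0.0076 for IL17A against untreated cells, where all genes had 0.0033. It was 0.0039 for IL17A within medium, -0.042 for medium alone and -0.0542 for medium added to IL17A, beside -0.0323, 0.0425 and 0.0191 over all genes. The signs of the first 3 of the list turn under 75th percentile scaling, to 0.0635, -0.0043 and 0.0395. Differences smaller than 0.5 in size were seen for 25 of 34 genes with IL17A, or 73.5%, where 87.1% of all genes stayed that close. With IL17A within medium the shares were 82.4% and 86.3%, with medium alone 82.4% and 84.0%, with medium added to IL17A 85.3% and 80.0%, and with both against none 64.7% and 78.8%. A set of 21 of the 34 genes stayed within 0.5 in all 5 comparisons. The same share of all genes was not worked out, so this count is not read as a result about the list.

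**Figure D1:**
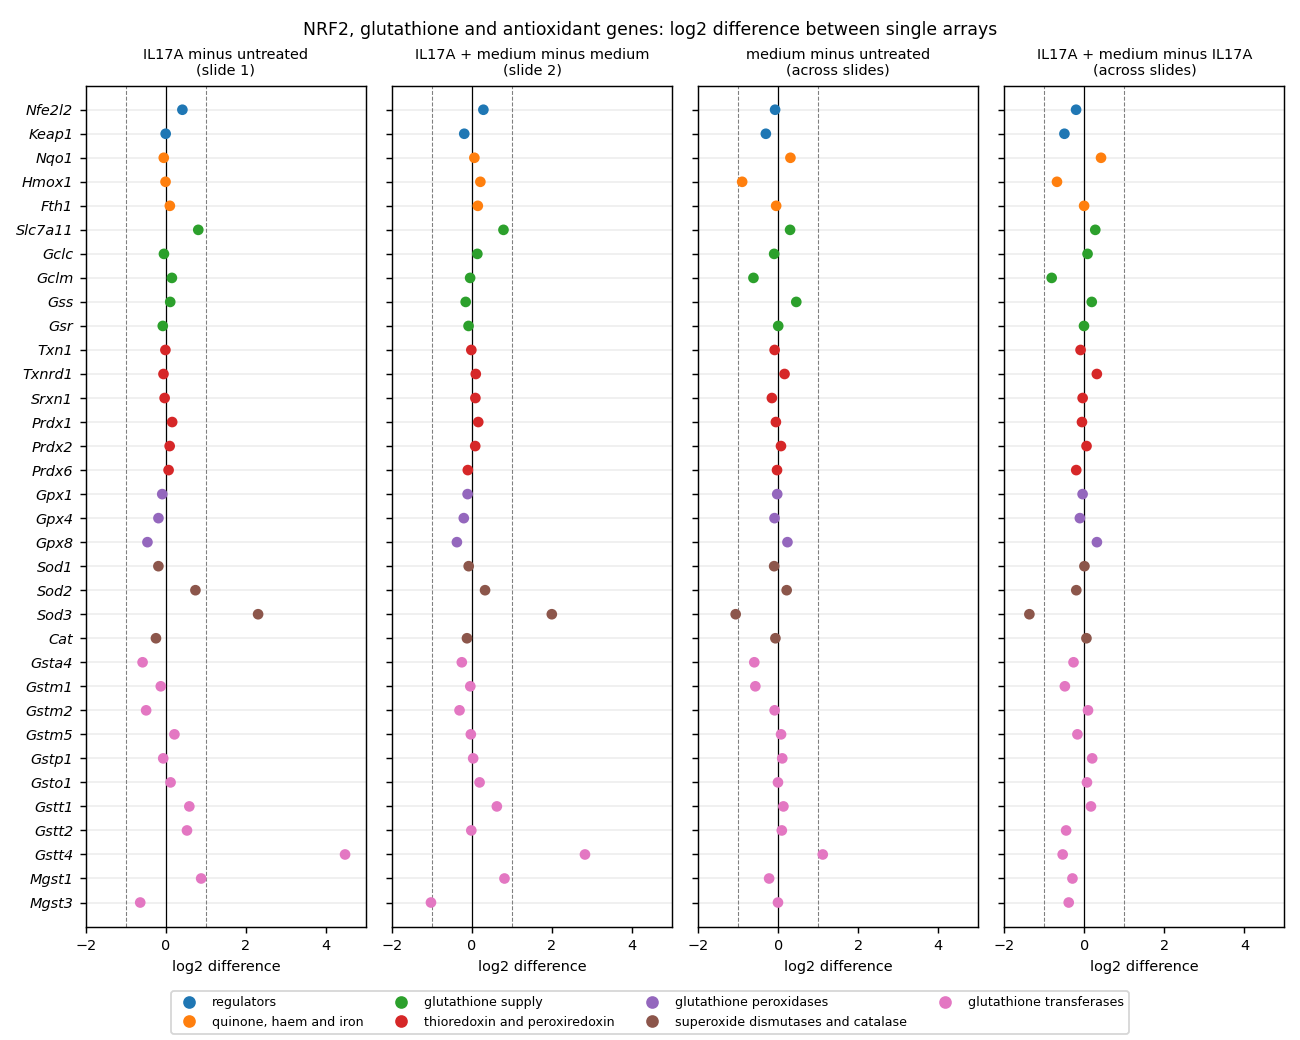
Log2 difference (horizontal axis) of each of the 34 measured genes (rows) in 4 comparisons of single arrays, coloured by role, with dashed lines at a 2-fold difference. Most points lie near 0, Gstt4 and Sod3 lie beyond the right line in both IL17A panels, and Sod3 lies beyond the left line in both medium panels.

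Promoter sequences are shown for 5 genes that the results turn on, because they set the letters of antioxidant response elements beside genes that did and did not differ. The sequences are RefSeq's for build GRCm38.p6, the 250 bases before the annotated start, given 5′ to 3′ on the gene's strand. A promoter entry was matched by symbol for 28 of the 35 genes, with 36 promoters in all. Capitals mark matches, on either strand, to 4 motifs. They are TGACNNNGC, the core of an antioxidant response element; TGANTCAGC, the MAF and NRF2 type of element; GGG and TCC with any 4 bases between them, the NF-κB type; and TGATGNAA, the C/EBP and ATF type. The windows are chr2:152105274-152105523, plus strand, for Srxn1, chr4:116685349-116685598, plus strand, for Prdx1, and chr3:122245307-122245556, plus strand, for Gclm. They are chr3:50443614-50443863, minus strand, for Slc7a11, and chr10:75822544-75822793, minus strand, for Gstt4.
Srxn1: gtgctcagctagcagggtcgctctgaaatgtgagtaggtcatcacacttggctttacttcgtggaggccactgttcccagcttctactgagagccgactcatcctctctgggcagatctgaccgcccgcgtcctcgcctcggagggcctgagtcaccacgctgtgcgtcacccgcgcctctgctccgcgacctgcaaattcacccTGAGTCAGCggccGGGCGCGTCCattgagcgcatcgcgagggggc
Prdx1: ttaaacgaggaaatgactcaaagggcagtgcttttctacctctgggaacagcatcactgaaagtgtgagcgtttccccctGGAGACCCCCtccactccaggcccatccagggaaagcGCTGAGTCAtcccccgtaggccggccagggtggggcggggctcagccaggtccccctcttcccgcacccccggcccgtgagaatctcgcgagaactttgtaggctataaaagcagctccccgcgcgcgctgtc
Gclm: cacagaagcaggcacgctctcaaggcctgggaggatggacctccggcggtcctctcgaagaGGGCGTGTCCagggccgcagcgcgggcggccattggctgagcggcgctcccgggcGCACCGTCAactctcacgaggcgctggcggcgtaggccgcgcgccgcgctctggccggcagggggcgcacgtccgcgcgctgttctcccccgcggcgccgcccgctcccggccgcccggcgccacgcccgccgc
Slc7a11: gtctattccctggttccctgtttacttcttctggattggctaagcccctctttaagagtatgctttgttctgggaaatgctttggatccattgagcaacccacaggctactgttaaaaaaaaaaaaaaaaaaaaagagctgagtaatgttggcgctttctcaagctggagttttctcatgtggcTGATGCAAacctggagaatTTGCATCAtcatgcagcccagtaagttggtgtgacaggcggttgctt
Gstt4: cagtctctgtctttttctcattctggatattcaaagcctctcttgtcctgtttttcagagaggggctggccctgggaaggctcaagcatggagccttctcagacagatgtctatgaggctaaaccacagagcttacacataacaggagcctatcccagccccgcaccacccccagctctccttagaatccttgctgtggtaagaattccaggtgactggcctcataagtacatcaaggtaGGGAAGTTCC

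Srxn1 held TGAGTCAGC at bases 45 to 37 before its start and Gclm held GCACCGTCA at bases 134 to 126. In Prdx1 the match GCTGAGTCA counts for both kinds of antioxidant element, because the motifs overlap there. Slc7a11 held the C/EBP and ATF type 2 times, and Gstt4 ended in GGGAAGTTCC directly before its start, with neither form of antioxidant element in the window. Over all 36 promoters of the list, TGACNNNGC was found in 7, or 19.4%, against 10.2% of 32851 promoters, and TGANTCAGC in 3, or 8.33%, against 1.02%. The NF-κB type was found in 14, or 38.9%, against 16.5%, and TGATGNAA in 1 against 3.45%. These are matches of letters, not tested for base composition, and they do not show that a factor bound there.

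Neither the sensor nor its factor passed the 2-fold rule in any comparison. Nfe2l2 had log2 levels of 11.41 untreated, 11.82 with IL17A, 11.33 with medium and 11.62 with both. It stood higher on both arrays with IL17A than on both without, by 0.41 and 0.28 on the log2 scale, several technical SDs but well under 2-fold. A second probe of Nfe2l2 gave 0.54 and 0.18. Keap1 had levels of 12.09, 12.08, 11.77 and 11.58 in the same order. It did not differ with IL17A alone, at -0.01, and both arrays with medium were below both without, by -0.31 and -0.50.

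Of 11 further NRF2 regulators, all well above background, 1 passed the 2-fold rule. This was Bach2, of the BACH family of repressors that compete for MAF partners. It was lower by -1.02 with IL17A, -0.51 with IL17A within medium and -1.26 with both treatments against none. The first and last of these are calls, in comparisons where 2.29% and 4.28% of all measured genes were lower. Bach1, the better known relative of Bach2, differed by -0.14 with IL17A and -0.42 with medium. The small MAF genes Mafg, Maff and Mafk differed with IL17A by 0.29, 0.19 and 0.08, and Maff stood higher with medium by 0.67. Cul3, Rbx1 and Btrc, parts of the ubiquitin ligases that degrade NRF2, differed with IL17A by 0.09, 0.07 and 0.43. Sqstm1, the autophagy receptor that binds KEAP1, differed by -0.19, and the related factors Nfe2l1 and Nfe2l3 by 0.17 and 0.32. The median over the 11 genes was 0.0867 with IL17A and -0.029 with medium.

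None of the classical NRF2 target enzymes passed the rule with IL17A. Nqo1, the quinone reductase often used as a readout of NRF2, had log2 levels of 10.20 untreated, 10.15 with IL17A, 10.50 with medium and 10.56 with both. Its IL17A differences were -0.05 and 0.06, and medium stood higher by 0.30 and 0.41 on the log2 scale, or 0.53 and 0.63 with normexp. Hmox1, haem oxygenase 1, which breaks down haem, had levels of 13.32, 13.31, 12.42 and 12.62. Both arrays with medium were below both without, by -0.90 and -0.69, while the IL17A differences were -0.01 and 0.21. This medium difference was 1.87-fold and missed the 2-fold rule; it was -1.13 with normexp background correction. Fth1, the ferritin heavy chain that stores iron, lay at 17.10, 17.20, 17.05 and 17.19. Srxn1, sulfiredoxin, which repairs overoxidized peroxiredoxins and carries the element shown above, had levels of 12.12, 12.09, 11.96 and 12.04. Neither Fth1 nor the brightest probe of Srxn1 differed by 0.2 or more in any single-step comparison. Another 2 probes of Srxn1, both dimmer, gave 0.34 and 0.18 with IL17A and -0.46 and -0.27 for medium added to IL17A. Their other single-step differences stayed below 0.2 in size.

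Glutathione supply was uneven between its import step and its synthesis. Slc7a11, the cystine carrier of the cystine and glutamate exchanger, had log2 levels of 6.42 untreated, 7.23 with IL17A, 6.72 with medium and 7.50 with both. Its 2 IL17A arrays lay above the 2 without, and the differences were 0.81 without medium and 0.78 with it, 1.75-fold and 1.72-fold; the first was 0.52 with normexp. The array with both treatments lay 1.08 above the untreated one, or 2.11-fold, which is past the 2-fold rule but was 0.73 with normexp. Another 2 probes of Slc7a11, both dimmer, gave 1.44 and 1.36 with IL17A and 0.69 and 1.01 with IL17A within medium. The fourth probe was not well above background on any array. The brightest probe lies at chr3:50176047-50176106 on mm9.

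Glutamate cysteine ligase makes the first and limiting step of glutathione synthesis. Its catalytic subunit Gclc had log2 levels of 11.26 untreated, 11.21 with IL17A, 11.16 with medium and 11.29 with both, within 0.13 of each other in every pair compared. The modifier subunit Gclm, which raises the activity of the catalytic one, had 9.88, 10.03, 9.26 and 9.21. Both arrays with medium were lower, by -0.62 against untreated and -0.82 against IL17A, or 1.54-fold and 1.76-fold. IL17A made little difference to it, at 0.15 and -0.05. Its differences thus went the way of Hmox1 and against those of Nqo1, although all of them are textbook NRF2 targets. Gss, glutathione synthetase, which does the second step, had levels of 10.00, 10.11, 10.45 and 10.29. Gsr, which reduces oxidized glutathione, lay at 10.65, 10.58, 10.65 and 10.56 at its brightest probe. None of the differences of that probe between single arrays reached 0.10. Its dimmer probes gave -0.04 and -0.17 with IL17A, 0.24 and 0.05 for medium alone, and 0.16 and 0.14 for medium added to IL17A.

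None of the thioredoxin and peroxiredoxin genes passed the rule in any comparison. Over its 6 genes the IL17A differences ran from -0.06 to 0.16 without medium and from -0.11 to 0.15 with it, and those of medium alone from -0.16 to 0.16. For medium added to IL17A they ran from -0.21 to 0.31. Txn1, thioredoxin itself, had log2 levels of 15.28 untreated, 15.27 with IL17A, 15.19 with medium and 15.17 with both. Txnrd1, which reduces it, had 13.15, 13.09, 13.31 and 13.40, with the 2 medium arrays higher by 0.16 and 0.31. Prdx1, a peroxidase that removes hydrogen peroxide, had 14.07, 14.23, 14.01 and 14.17. IL17A arrays lay above those without, by 0.16 and 0.15, differences beyond 1 technical SD that remain far from 2-fold. Prdx2, of the same family, was printed at 10 spots, with means of 15.25 ± 0.0691, 15.35 ± 0.0307, 15.32 ± 0.0804 and 15.40 ± 0.0524 (SD over 10 spots of 1 array). Prdx6, which also repairs oxidized membrane lipids, had 13.56, 13.63, 13.53 and 13.42 at its brightest probe. A dimmer probe of it gave 0.98 for IL17A within medium, where the brightest gave -0.11, so its probes disagree in that comparison.

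None of the 3 measured glutathione peroxidases passed the rule in any comparison. Gpx8, an endoplasmic reticulum member of the family, had log2 levels of 12.57 untreated, 12.11 with IL17A, 12.80 with medium and 12.42 with both. The groups with and without IL17A did not overlap, with differences of -0.46 and -0.38. Gpx4, which reduces lipid peroxides and protects from ferroptosis, had 14.80, 14.62, 14.71 and 14.50, with IL17A differences of -0.19 and -0.21. Gpx1, the abundant cytosolic enzyme, had 14.23, 14.13, 14.20 and 14.09. Its differences of -0.09 and -0.11 are about the size of the technical SD.

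The superoxide dismutases had unequal IL17A differences, with the largest in the secreted member. Sod3, the enzyme of the extracellular matrix, had log2 levels of 5.43 untreated, 7.73 with IL17A, 4.36 with medium and 6.36 with both. It was highest with IL17A alone and lowest with medium alone, and both arrays with IL17A lay above both without. The IL17A difference was 2.31 without medium and 1.99 with it, or 4.94-fold and 3.98-fold. The medium differences were -1.07 without IL17A and -1.38 with it, or 2.09-fold and 2.60-fold lower. The array with both treatments still lay 0.93 above the untreated one, or 1.90-fold. Sod3 was read by 1 probe, at chr5:52759318-52759377 on mm9, and its values moved with the background step. With normexp its IL17A differences were 1.49 and 0.86 and its medium differences -0.35 and -0.98, so 3 of its 4 calls were lost; the cause was not tested. Both treatments against none gave 0.50.

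Sod2, the mitochondrial manganese enzyme and a known NF-κB target, had log2 levels of 13.78 untreated, 14.52 with IL17A, 13.99 with medium and 14.32 with both. Both arrays with IL17A lay above both without, by 0.74 and 0.32, or 1.67-fold and 1.25-fold. The difference between these IL17A differences was -0.41, beyond the technical SD but without a test. Sod1, the cytosolic copper and zinc enzyme, had 16.06, 15.87, 15.96 and 15.87. Cat, catalase, which breaks down hydrogen peroxide in peroxisomes, had 9.02, 8.77, 8.95 and 8.82. The IL17A differences were -0.19 and -0.09 for Sod1 and -0.25 and -0.13 for Cat, none past the rule. The first of Sod1 turned to 0.03 with 75th percentile scaling, and its second is no larger than the technical SD. Dimmer probes of Sod1, at log2 levels of 3.05 and 6.24 untreated, gave 0.05 and -0.21 with IL17A. For IL17A within medium they gave 0.46 and 0.40, so the probes of Sod1 disagree in that comparison.

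**Figure D2:**
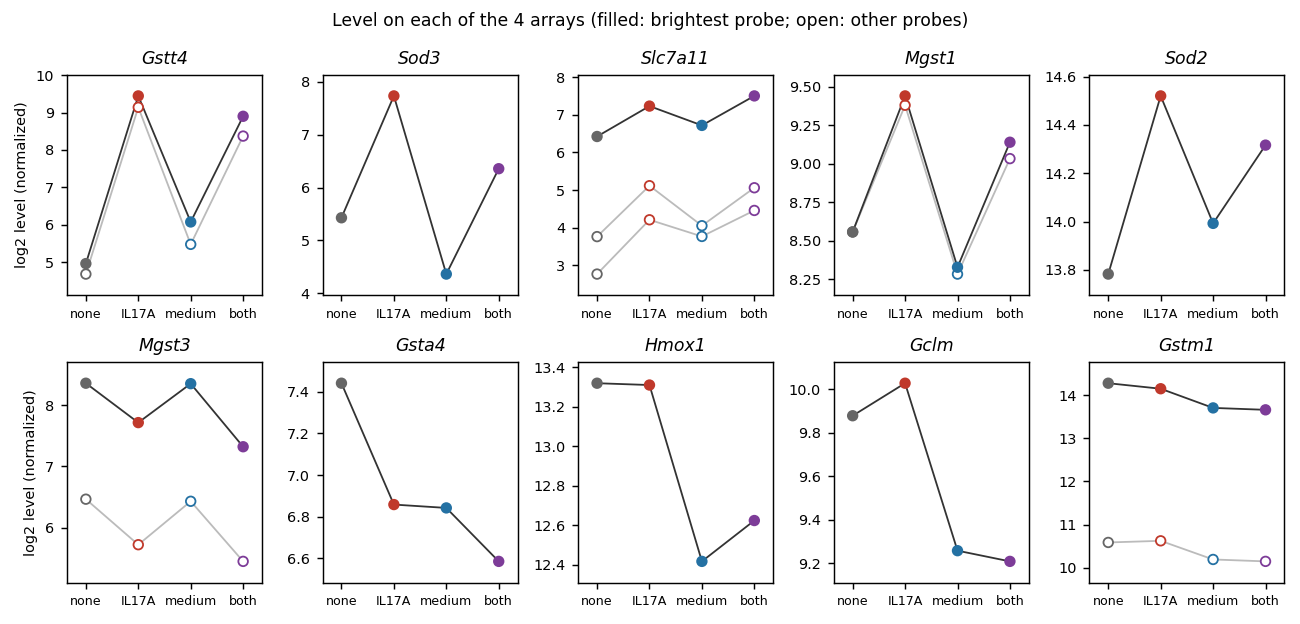
Log2 level (vertical axes, which differ in range and do not start at 0) of 10 genes on the arrays of untreated cells (none), IL17A, ADSC medium and both, with 1 point per array and probe; lines join the points of 1 probe. Gstt4, Sod3, Slc7a11, Mgst1 and Sod2 stand higher on both IL17A arrays, Mgst3 lower on both, and Hmox1, Gclm and Gstm1 lower on both medium arrays.

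The glutathione transferases, which join glutathione to electrophiles, held the largest differences. Gstt4, of the theta class, had log2 levels of 4.96 untreated, 9.44 with IL17A, 6.08 with medium and 8.90 with both. It was the gene of the list with the largest difference in every comparison with IL17A against none, 4.48 without medium and 2.82 with it, or 22.3-fold and 7.08-fold. The arrays with and without IL17A did not overlap. Medium alone stood 1.11 above untreated, or 2.16-fold, and medium added to IL17A stood 0.54 lower on the log2 scale. The IL17A difference within medium was 1.66 smaller on the log2 scale than without it.

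A second probe of Gstt4, at chr10:75277786-75277845 on mm9 and directly adjacent to the brightest at chr10:75277846-75277905, had levels of 4.68, 9.14, 5.48 and 8.37. Its differences were 4.46 and 2.89 with IL17A, 0.79 for medium alone and -0.77 for medium added to IL17A. The medium difference alone thus passed the 2-fold rule at only 1 of the 2 probes. It was 0.96 with 75th percentile scaling and 0.50 with normexp. The IL17A differences of the brightest probe were 3.07 and 2.08 with normexp, and both treatments against none gave 2.58, where 3.94 was found otherwise. The first 30 of the 60 bases of both probes are printed to show that they are separate sequences, in lower case throughout.
Gstt4 brightest probe: tcatgaaagactggtgaagttaccaaactg
Gstt4 second probe: gatgaggatttgtgactttctgcagaagtt

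The other theta transferases moved less. Gstt1 had log2 levels of 7.32 untreated, 7.91 with IL17A, 7.45 with medium and 8.07 with both, so both arrays with IL17A lay higher, by 0.59 and 0.62 on the log2 scale. Gstt2, whose probe lies at chr10:75295206-75295265 on mm9, had 6.07, 6.60, 6.16 and 6.14. Its IL17A difference was 0.53 without medium, or 0.35 with normexp, and -0.02 with it. Of the 3 theta genes, the IL17A difference within medium was thus about as large as without it for Gstt1, smaller for Gstt4 and near 0 for Gstt2. Whether probes of close relatives also bind each other's transcripts was not tested.

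The microsomal transferases went opposite ways. Mgst1, of the endoplasmic reticulum and outer mitochondrial membrane, had log2 levels of 8.56 untreated, 9.44 with IL17A, 8.33 with medium and 9.14 with both. Both arrays with IL17A were above both without, by 0.88 and 0.81, or 1.84-fold and 1.75-fold, and a second probe gave 0.82 and 0.75. Mgst3, which also acts on lipid hydroperoxides, had 8.36, 7.72, 8.35 and 7.32. Both arrays with IL17A were below both without, by -0.64 and -1.03, and medium alone gave -0.01. A second probe of Mgst3 gave -0.74 and -0.98, so the call within medium rests on the probe read; it was also lost with 75th percentile scaling, at -0.98, and with normexp, at -0.79. The array with both treatments lay -1.04 from the untreated one, and -0.85 with normexp. Another probe of Mgst3 was well above background on the untreated array alone.

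None of the 4 mu and alpha class genes of the list passed the rule in any comparison. Gstm1, the main mu enzyme of mouse liver, had log2 levels of 14.28 untreated, 14.15 with IL17A, 13.71 with medium and 13.66 with both, and both arrays with medium were lower, by -0.57 and -0.49. A second probe gave -0.39 and -0.48, and the second of these differences was -0.27 with normexp. Gstm2 had 12.99, 12.49, 12.90 and 12.58, with both IL17A arrays lower, by -0.49 and -0.31. Gstm5 lay at 11.24, 11.46, 11.31 and 11.28, Gstp1, the pi class enzyme, at 15.37, 15.30, 15.47 and 15.50, and Gsto1, of the omega class, at 14.43, 14.55, 14.42 and 14.61. No difference of these 3 genes between arrays a single step apart reached 0.25.

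Gsta4, the alpha class enzyme that clears the lipid peroxidation product 4-hydroxynonenal, was printed at 10 spots, of which 1 was an outlier on the array with both treatments. Its log2 level over those spots was 7.44 ± 0.0764 untreated, 6.86 ± 0.0463 with IL17A, 6.84 ± 0.106 with medium and 6.59 ± 0.0874 with both (SD over 10 spots of 1 array, or 9 on the array with both). The spots of the untreated array lay above those of every other array without overlap, and the arrays of IL17A alone and medium alone overlapped. The differences were -0.58 with IL17A, -0.60 with medium and -0.86 with both. The spots share 1 RNA sample, so their SD says nothing of other cultures.

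**Figure D3:**
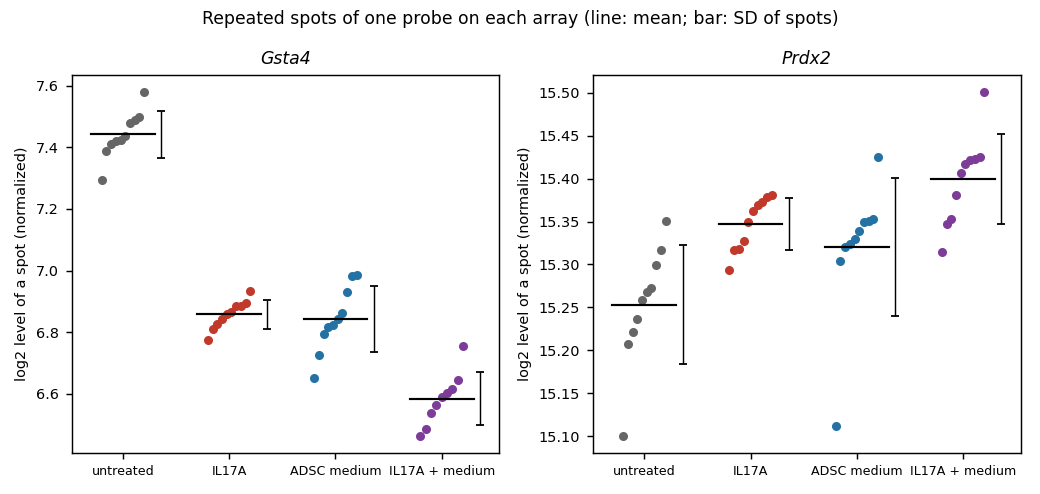
Log2 level of single spots (vertical axis, not starting at 0) of the Gsta4 and Prdx2 probes on the 4 arrays, sorted within each array, with the mean as a line and the SD of the 10 spots (9 for Gsta4 with both treatments) as a bar. The Gsta4 spots fall from a mean of 7.44 untreated to 6.59 with both treatments, while the Prdx2 means stay between 15.25 and 15.40.

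IL17A differences without and with medium had the same sign for 23 of the 34 genes, or 67.6%, where 62.4% of 14487 genes well above background on all arrays did. The comparisons have separate controls, each on its own slide. The IL17A difference within medium minus that without was 0.5 or more in size for 2 of the genes, Gstt4, at -1.66, and Gstt2, at -0.55. The value of Gstt2 was -0.38 with 75th percentile scaling and -0.36 with normexp. For Sod2 it was -0.41, for Mgst3 -0.39, for Gsta4 0.33 and for Sod3 -0.31. For Slc7a11 it was -0.02 at the brightest probe, whose 2 IL17A differences cannot be told apart at the technical SD. The 2 dimmer Slc7a11 probes gave smaller IL17A differences within medium, 0.69 and 1.01, than without it, 1.44 and 1.36. With normexp the value of Gstt4 was -0.99 and that of Sod3 -0.63. With 75th percentile scaling that of Sod3 was -0.10 and that of Sod2 -0.52. With the mean of all probes the value of Mgst3 turned to 0.57. That mean takes in the Mgst3 probe well above background on the untreated array alone. Its log2 levels were 4.04 untreated, 1.70 with IL17A, 0.34 with medium and 0.34 with both. Which genes besides Gstt4 reach 0.5 thus changes with the processing.

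**Figure D4:**
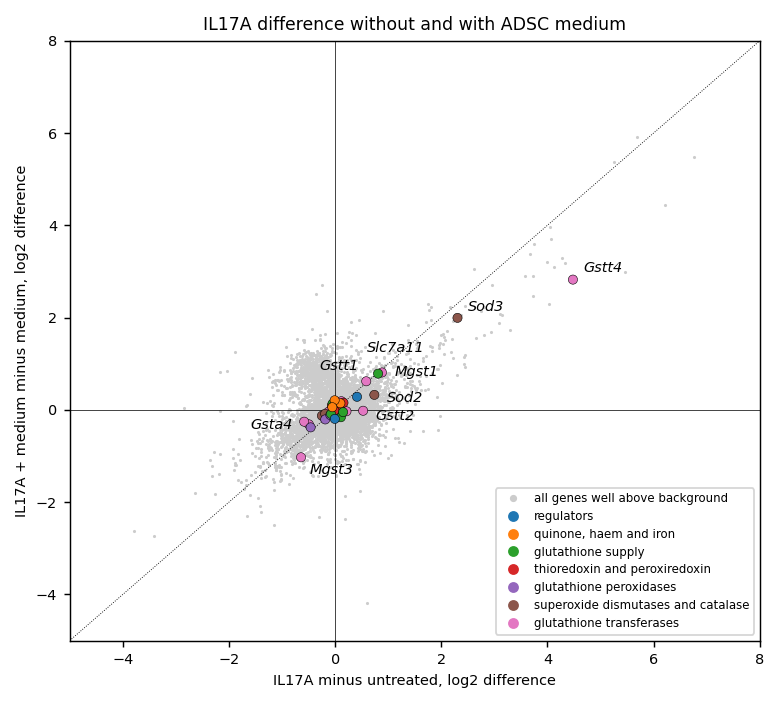
Log2 difference of IL17A against untreated cells (horizontal axis) and of IL17A plus medium against medium (vertical axis), with the 34 genes coloured by role, all other genes well above background on all arrays in grey, and a dotted line where both are equal. Gstt4 lies below the line at 4.48 and 2.82, and Sod3, Slc7a11, Mgst1 and Gstt1 lie close to it.

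The authors' deposited table of probes higher with IL17A and lower without holds 861 probe IDs, 2.09% of all probes. It includes 5 of the 57 probes of the list, 1 each of Slc7a11, Sod2, Mgst1, Sod3 and Gstt4. In the authors' deposited table of probes higher with IL17A and lower with IL17A plus medium, with 1193 IDs or 2.90% of probes, there were 3, of Hmox1, Gclm and Sod3. Of these, Sod3 was at least 2-fold different here and Hmox1 and Gclm were 1.61-fold and 1.76-fold lower. The criteria behind both tables are not given in the sources used here, and the tables rest on these same 4 arrays, so they are no separate evidence.

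Genes of the same pathways outside the list were set beside it. Of 29 other glutathione enzymes and carriers 25 were measured, and 1 was higher and 0 lower with IL17A, where 2.17% and 2.29% of all measured genes were. That was Mgst2, a microsomal transferase, with log2 levels of 7.54 untreated, 8.68 with IL17A, 7.35 with medium and 7.64 with both. Its IL17A difference was 1.14 without medium and 0.29 with it, and medium added to IL17A gave -1.04. Medium alone gave 1 higher gene, Anpep, an aminopeptidase that trims the breakdown products of glutathione, with log2 levels of 7.63 untreated and 8.63 with medium. The gamma-glutamyltransferase family gene Ggt6 was lower with IL17A within medium, at -1.32, and with medium added to IL17A, at -1.48; the array with both was not well above background in either. Its relative Ggt5 was lower with IL17A within medium, at -1.06. Ggt7, of the same family, was higher with medium added to IL17A, at 1.07, and so was Anpep, at 1.26. With both treatments against none, Gsta1, an alpha class transferase, was higher, at 1.02, and Chac1, which degrades glutathione, and Ggt6 were lower, at -1.06 and -1.96.

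Of 18 other thioredoxin system genes 1 passed the rule, Glrx, glutaredoxin, which removes glutathione from proteins. Its levels were 9.27, 10.45, 9.63 and 10.44, and its IL17A differences 1.18 and 0.82. It was called higher with IL17A and with both treatments against none, where 2.17% and 3.38% of all measured genes were. Of 17 other enzymes and carriers counted as NRF2 targets 14 were measured. With IL17A 1 was higher and 0 lower, beside 2.17% and 2.29% of all measured genes. Abcc3, a membrane exporter of conjugates, had levels of 5.54, 7.83, 5.91 and 6.68, with IL17A differences of 2.29 and 0.77. Medium added to IL17A gave -1.15. Ces2g, a carboxylesterase, stood higher with medium, by 1.57 alone and 1.53 with IL17A, although the second of these is against an array on which it was not well above background.

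Among 10 genes of NADPH supply, the source of reducing power for these systems, 0 passed with IL17A and 1 was lower with medium. Of all measured genes, 2.17% were higher and 2.29% lower with IL17A, and 2.97% were lower with medium alone. Idh1, the cytosolic isocitrate dehydrogenase, had log2 levels of 7.66 untreated, 7.49 with IL17A, 6.42 with medium and 6.30 with both, and medium differences of -1.24 and -1.19. Of 10 genes of haem and iron 9 were measured and 0 passed in any comparison. Of 14 NADPH oxidase genes, which make superoxide, 0 of 7 measured passed with IL17A. Duox1 and its maturation factor Duoxa1 lay lower with both treatments than with none, by -1.58 and -1.49. Of the subunits of the phagocyte type oxidase, Ncf4 was higher with medium added to IL17A, at 1.11, and Ncf1 lower, at -1.09. Nox4, the oxidase best known in stellate cells, differed with IL17A by -0.57 and -0.74.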

How the data were processed

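Total RNA of 4 samples was measured on 4 Agilent 1-colour mouse arrays with probe positions on mm9, read with Feature Extraction 12.1.1.1 per the file headers. The deposited intensity values are processed signals that were background-subtracted per the file headers and not yet normalized between arrays. Per the file headers, score columns deposited beside the signals hold a 0 or 1 that marks a spot as well above background, saturated or an outlier. The authors used quantile normalization per the series design text, and the submitters' processing notes name R 3.5.1. The deposited probe tables hold IDs and no values.

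Control spots and outlier spots (91 to 126 of 43379 per array) were left out, and log2 signals were quantile normalized with limma 3.58.1 (R 4.3.3). A second Gclm probe was lost to an outlier spot. Spots of a probe were averaged, and the probe of highest mean stood for its gene. Of 57 probes of the list 51 matched a RefSeq accession with the same symbol in the GRCm38.p6 gene table, the brightest probe of all 35 genes among them. A probe was well above background on an array where at least 0.5 of its spots were. A difference was called at a fold of 2 with the brighter array well above background, and a dim side was raised to the lowest log2 value well above background on that array, between 2.34 and 2.74. The size rule was run on simulated arrays with noise about the size of that between spots and with known changes larger than the threshold. This checks the calculation only, because variation between cultures or arrays was not simulated. Other steps used Python 3.11.15, NumPy 2.4.6, pandas 2.3.3 and Matplotlib 3.10.9.

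The members of the list, the other gene lists and the comparisons were chosen with earlier results of these data known. All genes of the list are accounted for, and levels on all arrays are given for those past the rule and for the main enzymes of each role. Of the other lists, the regulators are all named, and elsewhere up to 4 genes a list past the rule (all those of the other glutathione enzymes), with the check gene Il6 and, chosen after its values were seen, Nox4 added. Alternatives were 75th percentile scaling, normexp background correction (offset 50), a stricter filter on dim probes and none, the mean of a gene's probes, a 1.5-fold rule and, chosen after seeing the data, probes with a RefSeq accession only.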

Additional observations from a re-analysis of the deposited data

How the results depend on the processing

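With 1 array per group, no array could be left out and no error between cultures is known. No paired analysis was possible because each group has 1 array and the result comes from no test. No direction of a called gene turned under any alternative. The counts of called genes of the list were unchanged with genes well above background on all 4 arrays, with no filter on dim probes, and with RefSeq accessions only. With 75th percentile scaling, 0 were lower for IL17A within medium and 0 higher for medium alone. With normexp, 1 was higher and 0 lower for IL17A within medium, 0 higher for medium alone, 0 lower for medium added to IL17A, and 1 higher and 0 lower for both treatments against none. The 1 gene lower for medium alone was then Hmox1, at -1.13, in place of Sod3, at -0.35. With the mean of all probes, 1 was lower for IL17A (Mgst3, at -1.24) and 0 lower for IL17A within medium. For medium alone, 0 were then higher and 2 lower. The Mgst3 mean takes in a probe well above background on the untreated array alone. With the 1.5-fold rule, 6 were higher and 1 lower for IL17A, 5 higher for IL17A within medium, 4 lower for medium alone, 3 lower for medium added to IL17A, and 4 higher and 5 lower for both against none. Over all measured genes the 1.5-fold rule called 5.7% higher and 6.5% lower for IL17A, and 7.5% higher for IL17A within medium. It called 7.9% lower for medium alone and 8.9% lower for medium added to IL17A. For both against none it called 9.3% higher and 10.5% lower. The causes of the changed counts were not tested beyond the looser rule itself.

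Over all genes, higher and lower calls of IL17A against untreated were 345 and 363, and 97 and 66 with normexp, 205 and 203 with all-array detection, 969 and 1096 with no filter, and 903 and 1038 at 1.5-fold. For IL17A within medium they were 460 and 293, against 724 and 172 with 75th percentile scaling, 76 and 22 with normexp, 286 and 149, 1109 and 953, and 1213 and 948 in the same order. RefSeq accessions only gave 198 and 251. For medium alone they were 394 and 478, against 49 and 110, 218 and 256, 1111 and 1185, and 1171 and 1280, with 344 and 277 for RefSeq accessions only. For medium added to IL17A they were 511 and 494, against 775 and 372 with 75th percentile scaling, 73 and 122 with normexp, 1271 and 1221 with no filter, 1430 and 1406 at 1.5-fold, and 225 and 328 for RefSeq accessions only. For both against none they were 549 and 696, against 128 and 177 with normexp, 330 and 426 with all-array detection, 1254 and 1412 with no filter, and 1509 and 1698 at 1.5-fold.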
